A study of Mus musculus with 6 samples.

Results

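The distal miRNA cluster of the imprinted Dlk1-Dio3 locus, which runs from miR-379 to miR-410 and ends at miR-3072, was followed in small RNA libraries of mouse sensorimotor cortex. Its members were taken by position, as all annotated Mir genes on the plus strand of chromosome 12 in the window that holds the Mirg side of the locus (GENCODE M21, GRCm38). They are 38 of the 1174 named miRNA hairpins. The tested animals had the spinal cord cut through completely at the C5/6 level (SCI, 3 libraries). The control animals had the cord exposed and left undamaged (3 libraries). All were male C57BL/6J mice operated at postnatal day 90, and the cortex of each was collected individually 7 days after surgery. The comparison asks how the cluster's miRNAs stand in cortex at a distance from the lesion.

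The miRNAs of this cluster are cut from long non-coding transcripts that are made from the maternally inherited chromosome only, with Mirg as the host transcript of the distal end. They are abundant in brain, and in rodent neurons members such as miR-134, miR-329 and miR-485 act on dendrites and synapses. Several of the precursors are known substrates of ADAR enzymes, which turn adenosine into inosine, a base that sequencing reads as guanosine. A miRNA recognises its targets mainly through its seed, bases 2 to 8 from the 5′ end, so a changed base there, or another 5′ end, gives the miRNA another seed.

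The 38 hairpins lie at chr12:109709060-109747960, over 38.9 kb of the plus strand, with a median gap of 590 bp and a largest gap of 4368 bp between neighbours. The annotation puts 14 of them in the lincRNA gene Mirg (9 in an exon and 5 in an intron) and gives the other 24 no host gene on their strand. For 5 of them another gene is annotated on the opposite strand. Reads were matched on the sense strand. Both arms of Mir299a were counted together with arms of Mir299b on the opposite strand. Values given below for miR-299a may therefore hold reads of either gene.

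RefSeq (GRCm38.p6) held a mature sequence for 67 of the 71 arms with reads. The mature sequences printed first belong to arms on which the results below turn. They are written 5′ to 3′, with the seed in capitals.
miR-369-3p: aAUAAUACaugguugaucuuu
miR-410-3p: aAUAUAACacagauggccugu
miR-300-3p: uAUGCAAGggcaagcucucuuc
miR-381-3p: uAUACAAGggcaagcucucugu
miR-376b-3p: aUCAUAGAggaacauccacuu
miR-376a-5p: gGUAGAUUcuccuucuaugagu
miR-543-3p: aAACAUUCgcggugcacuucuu
miR-1197-3p: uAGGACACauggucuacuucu
miR-3072-3p: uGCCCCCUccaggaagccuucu
miR-379-5p: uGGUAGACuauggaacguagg
miR-411-5p: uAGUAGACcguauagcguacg
miR-379-3p: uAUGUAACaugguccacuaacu
miR-411-3p: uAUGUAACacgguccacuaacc
The 3p arms of miR-379 and miR-411, the first 2 hairpins of the cluster, carry the same seed. So do miR-381-3p and miR-539-3p, and miR-543-5p and miR-495-5p, taking the most common 5′ end of each arm in the exact reads. The 65 arms tested carried 62 different seeds. Seeds were shared with 4 tested miRNAs outside the cluster, namely by miR-329-3p with miR-362-3p, miR-410-3p with miR-344d-3p, miR-377-5p with miR-672-5p and miR-668-5p with miR-467e-5p. An A was the first base of 41.5% of the 65 arms, against 25.9% of all 690 arms tested.

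The most common read with the changed base is given below for the sites at which A was most often read as G, other than that of miR-376c-3p. That site, changed in 48.9% of reads on average, is not printed, and its arm has no RefSeq mature sequence. The changed base is in capitals, and the reads are printed with T.
miR-376b-3p: atcatGgaggaacatccactt
miR-376a-5p: ggtGgattctccttctatgagt
miR-411-5p: atagtGgaccgtatagcgtacg
miR-379-5p: tggtGgactatggaacgtagg
miR-381-3p: tatGcaagggcaagctctctgt
The miR-411-5p read starts 1 base upstream of the most common 5′ end of the exact reads, from which its position was counted.

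The 3 SCI libraries held 14628518, 23408028 and 19918863 reads and the 3 control libraries 22937179, 10585062 and 24480988. Between 72.9% and 78.9% of them were counted in miRNA arms. Levels are CPM, counts relative to all reads in miRNA arms after TMM scaling. Reads carry no molecular identifiers, so the precision drawn from depth covers counting error only. On the first principal component of the 690 arms (36.3% of the variance) the groups did not overlap. SCI libraries stood at 6.16, 2.38 and 6.26 and control libraries at -9.49, -3.85 and -1.46, with control 1 farthest out. Summed neuronal miRNAs (8 of 8 found, none at 0) lay at 222480 to 241691 CPM in SCI libraries and 250087 to 285251 CPM in control libraries. Of the 8, 6 had fold changes below 0 and 2 above, and miR-9 and miR-128 make up most of the sum. miR-124-3p, the best known neuronal miRNA, ran the other way, with 14891, 17528 and 16243 CPM in SCI libraries and 9674, 12503 and 16230 CPM in control libraries. The sums of 3 oligodendrocyte markers (5636 to 6417 against 6441 to 8761 CPM) and 5 microglia and leukocyte markers (1176 to 1365 against 1393 to 1629 CPM) were also lower in every SCI library. Of these 5, miR-150-5p gave most of the sum. miR-155-5p had higher values in SCI, with 22.0, 21.1 and 28.9 CPM in SCI libraries against 14.6, 21.7 and 15.2 CPM in control libraries. Each of the 3 oligodendrocyte markers overlapped between the groups when taken alone, and all 3 had fold changes below 0. The sums of 4 endothelial and mural, 3 erythrocyte, 7 choroid plexus and epithelium, 4 muscle and 4 spinal cord and hindbrain markers overlapped between the groups. The part of these differences in the results below was not tested. In such bulk samples fewer cells of a type and less RNA per cell cannot be told apart.

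The cluster as a whole took a similar share of the miRNA reads in both groups. It held 3.17%, 2.98% and 3.58% of the miRNA reads in SCI libraries, against 3.29%, 3.09% and 3.16% in control libraries. The SCI values lie on both sides of the control values. The means were 3.24% ± 0.307 in SCI and 3.18% ± 0.103 in control (SD, n = 3 each), a difference of 0.0604 percentage points (two-sided exact permutation test, p = 0.8, smallest possible 0.1). The proximal miRNAs of the same locus around Rtl1 (19 hairpins) took 4.83% ± 0.531 in SCI and 4.12% ± 0.474 in control (exact permutation test, p = 0.2).

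The members differed widely in level. Of the 38 hairpins, Mir453 and Mir654 had no read, and 71 arms of the others had at least 1. Counts were high enough to test 65 arms. The 6 arms left out (miR-1197-5p, miR-758-5p, miR-494-5p, miR-679-3p, miR-1193-5p and miR-3072-5p) had 2 to 57 reads over all libraries. The tested arms ranged from 1.05 to 4173 CPM with a median of 107 CPM, against a median of 23.7 CPM over all 690 arms. The 12 arms at 1000 CPM or more were led by miR-369-3p, which alone made up 13.0% of the cluster's reads, followed by miR-300-3p, miR-411-5p and miR-410-3p. The 10 most abundant arms held 64.6% of the cluster's reads. These levels and ranks count exact reads only. With A-to-G reads added, miR-411-5p averaged 3101 CPM in SCI and 3233 CPM in control, above miR-300-3p at 2912 and 2211 CPM.

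No arm of the cluster passed the test of its level at an adjusted p under 0.05, by edgeR's quasi-likelihood test with Benjamini-Hochberg adjustment over all 690 arms. None of the 690 did, a background of 0.00%, and the smallest adjusted p was 0.116, for miR-1197-3p among others. At an unadjusted p under 0.05, 8 members were higher in SCI and 8 lower, against 8.12% and 5.94% of all arms tested. In 11 members every SCI library lay above every control library and in 8 every one lay below, against 9.13% and 11.2% of all arms. DESeq2 passed 3 members, miR-1197-3p, miR-3072-3p and miR-543-3p, beside 1.74% of all arms (12 of 690). Without a filter on low counts edgeR passed 7 members, the same 3 with miR-376b-3p, miR-381-3p, miR-412-5p and miR-539-3p, beside 2.11% of all arms (30 of 1421). The p-values measure the spread between these libraries. The median log2 fold change (SCI over control) of the 65 members was -0.03, beside -0.02 over all 690 arms and -0.03 over the 30 tested arms around Rtl1. Scaling by the total count moved the median of all arms to 0.09 and that of the cluster's arms to 0.09 likewise.

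**Figure D1:**
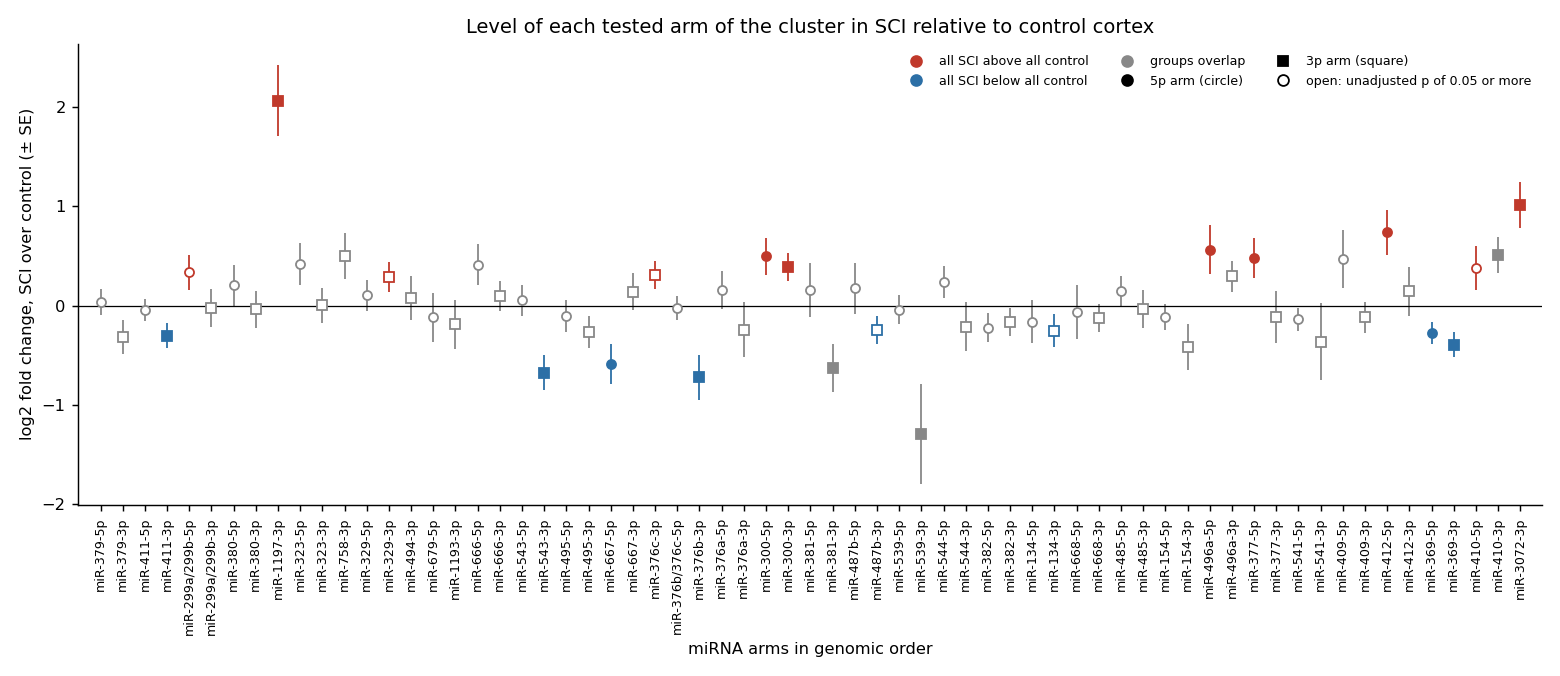
Log2 fold change, SCI over control, with its standard error for each of the 65 tested arms, in genomic order from miR-379 to miR-3072. Circles are 5p arms and squares 3p arms, colour marks arms whose groups do not overlap, and filled symbols mark an unadjusted p under 0.05 (edgeR). Higher and lower arms lie side by side along the cluster, from -1.29 for miR-539-3p to 2.06 for miR-1197-3p.

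The 8 arms with higher values in SCI at an unadjusted p under 0.05 ranged from scarce to abundant ones. miR-410-3p, from the last hairpin before Mir3072, had 2539, 2088 and 2918 CPM in SCI libraries, against 1396, 1748 and 2149 CPM in control libraries. SCI 2 lay just under control 3, so the groups overlapped (log2 fold change 0.51 ± 0.18 SE, edgeR adjusted p = 0.279). The 3p arm of miR-300, whose precursor resembles that of miR-381, had 2843, 2353 and 3351 CPM in SCI libraries, against 2187, 2148 and 2183 CPM in control libraries. The controls were close together and every SCI library lay above them (0.39 ± 0.14 SE, edgeR adjusted p = 0.279). Its partner arm miR-300-5p showed the same order, with 128, 111 and 138 CPM in SCI libraries and 102, 68.6 and 96.6 CPM in control libraries (0.50 ± 0.19 SE). The ratio of both miR-300 arms differed little between groups (log2 difference -0.14 ± 0.20 SE by limma).

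miR-1197-3p, among the scarcest arms tested, had the largest fold change of the cluster. It had 67, 48 and 60 reads in SCI libraries, against 20, 5 and 18 in control libraries, or 5.76, 2.72 and 3.84 CPM against 1.20, 0.622 and 0.943 CPM. Every SCI library was more than double any control library in CPM (2.06 ± 0.36 SE, edgeR adjusted p = 0.116, DESeq2 adjusted p = 0.0006084). miR-3072-3p, from the hairpin at the distal end within a Mirg exon, had 33.0, 29.8 and 45.0 CPM in SCI libraries and 13.8, 17.9 and 21.5 CPM in control libraries. Here too the groups stood apart (1.02 ± 0.23 SE, edgeR adjusted p = 0.157, DESeq2 adjusted p = 0.00168). miR-412-5p had 96.8, 63.7 and 100.2 CPM in SCI libraries, against 63.3, 41.7 and 50.7 CPM in control libraries (0.74 ± 0.23 SE). SCI 2 was only just above control 1. The other arms of this kind were miR-496a-5p (0.56 ± 0.25 SE) and miR-377-5p (0.48 ± 0.20 SE), both without overlap and below 35 CPM in every library.

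The 8 arms with lower values in SCI at an unadjusted p under 0.05 included both arms of miR-369, the most abundant hairpin of the cluster. miR-369-3p had 3377, 3475 and 3974 CPM in SCI libraries, against 5260, 4511 and 4441 CPM in control libraries. Every SCI library was below every control library (-0.39 ± 0.12 SE, edgeR adjusted p = 0.256). miR-369-5p had 1119, 1160 and 1148 CPM in SCI libraries and 1353, 1463 and 1337 CPM in control libraries (-0.28 ± 0.11 SE). Mir369 lies between Mir412 and Mir410, and the 3 hairpins are exonic in Mirg and neighbours on the chromosome. miR-412-5p and miR-410-3p had higher values in SCI at an unadjusted p under 0.05 (edgeR), with overlap in miR-410-3p. The partner arm miR-410-5p was higher without overlap (0.38 ± 0.22 SE). miR-412-3p overlapped, with 9.46, 8.21 and 12.6 CPM in SCI libraries and 8.72, 11.7 and 7.23 CPM in control libraries (0.14 ± 0.24 SE).

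miR-543-3p, reported to act on N-cadherin in mouse neural progenitors, had 345, 528 and 451 CPM in SCI libraries, against 679.6, 799 and 636 CPM in control libraries. The groups did not overlap (-0.67 ± 0.18 SE, edgeR adjusted p = 0.249, DESeq2 adjusted p = 0.04999). Its 5p arm had 85.5, 71.1 and 84.5 CPM in SCI libraries and 82.5, 77.5 and 71.9 CPM in control libraries, so that arm overlapped. miR-381-3p had 1340, 1237 and 1069 CPM in SCI libraries, against 2671, 1268 and 1706 CPM in control libraries. Control 1 was high and control 2 lay among the SCI values. The log2 fold change was -0.63 ± 0.24 SE with all libraries and -0.30 without control 1. miR-539-3p, which shares its seed, stood at 1.12, 1.02 and 1.41 CPM in SCI libraries and 5.29, 1.24 and 1.83 CPM in control libraries. This value also rests on control 1, with a log2 fold change of -1.29 ± 0.50 SE that went to -0.44 without it.

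miR-376b-3p had 76.3, 148 and 105 CPM in SCI libraries, against 185, 183 and 176 CPM in control libraries, counting reads that match the hairpin exactly (-0.72 ± 0.22 SE, edgeR adjusted p = 0.256). Every SCI library was lower, and the SCI libraries varied more among themselves than the controls. Most reads of this miRNA carry a changed base, and the values with these reads are given below. miR-411-3p had 681, 650.5 and 599 CPM in SCI libraries and 837, 779 and 761 CPM in control libraries (-0.30 ± 0.12 SE). miR-667-5p, with 4.90, 5.66 and 6.60 CPM in SCI libraries and 7.82, 9.46 and 8.70 CPM in control libraries, was the other scarce arm with lower values (-0.59 ± 0.20 SE).

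**Figure D2:**
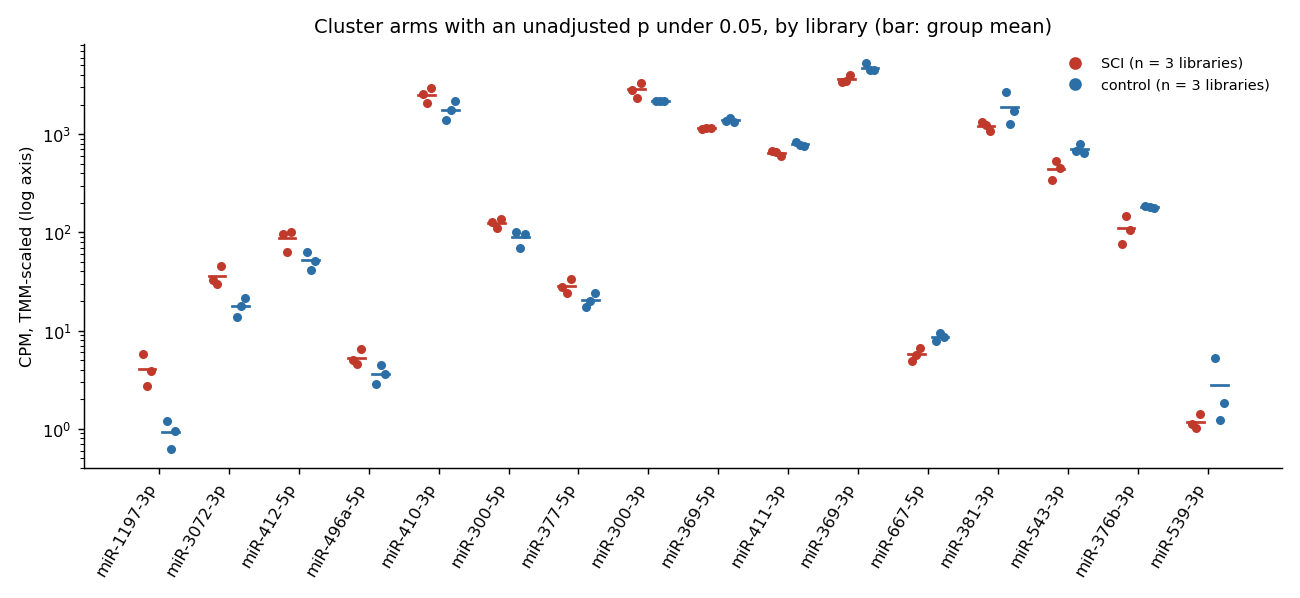
CPM on a log axis in each of the 3 SCI (red, left) and 3 control (blue, right) libraries, with bars at the group means, for the 16 arms with an unadjusted p under 0.05. Arms run from the largest positive to the largest negative fold change, and miR-381-3p and miR-539-3p show 1 control library far above the others.

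None of 4 members best known from neurons had an unadjusted p under 0.05. miR-134-5p, which limits dendritic spine size in rat neurons, had 107, 180 and 198 CPM in SCI libraries, against 180, 167 and 194 CPM in control libraries (-0.16 ± 0.22 SE). miR-329-3p, induced by activity in rat neurons, had 105, 94.0 and 120 CPM in SCI libraries and 85.6, 86.5 and 89.4 CPM in control libraries. Its groups did not overlap, and the test gave 0.29 ± 0.15 SE at an unadjusted p of 0.093 (edgeR). miR-485-5p lay at 298, 280 and 344 CPM in SCI libraries and 250, 316 and 267 CPM in control libraries, overlapping (0.15 ± 0.15 SE). miR-495-3p overlapped as well, with 412, 589 and 533 CPM in SCI libraries and 555, 665 and 619 CPM in control libraries (-0.26 ± 0.16 SE). The abundant miR-379-5p, miR-411-5p, miR-541-5p, miR-487b-3p and miR-154-5p had log2 fold changes of 0.04, -0.04, -0.14, -0.24 and -0.11. Of these, miR-487b-3p alone had no overlap, with 1411, 1209 and 1399 CPM in SCI libraries and 1818, 1519 and 1422 CPM in control libraries. miR-376a-3p had 1071, 1002 and 1118 CPM in SCI libraries against 1900, 761 and 1115 CPM in control libraries, where control 1 again was highest.

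Both arms of 1 hairpin come from 1 precursor, so their ratio does not depend on the scaling of the library. The ratios count exact reads only, so A-to-G reads are missing from the arm that carries them. The part of these reads in the ratios was not tested. Among hairpins with no arm merged with that of another hairpin, 33 had reads on both arms. Mir299a, Mir376b and Mir376c have merged arms and were left out. Of the 33, 22 gave more 3p reads and 11 more 5p reads, and in 16 of them 1 arm held over 90% of the reads. Mir541 gave almost only its 5p arm, while Mir410, Mir487b and Mir758 gave almost only the 3p arm. Mir485 gave both arms equally, with 50.0% of reads on the 3p side. Over 27 hairpins tested with limma none passed, nor did any of all 206, a background of 0.00%, and at an unadjusted p under 0.05 1 was higher and 2 were lower in SCI, against 3.40% and 7.28% of all. The 3p over 5p ratio was lower in SCI in 23 of the 27 (median log2 difference -0.26) and in 123 of all 206 (median -0.10).

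Mir667 had 10.9, 10.4 and 11.8 reads on the 3p side for each 5p read in SCI libraries, against 6.62, 6.47 and 6.84 in control libraries. The groups were well apart, with a log2 difference of 0.73 ± 0.16 SE (limma, adjusted p = 0.247). Mir543 had ratios of 4.03, 7.43 and 5.34 in SCI libraries and 8.23, 10.3 and 8.84 in control libraries (-0.74 ± 0.25 SE). Mir381 had 107, 176 and 140 in SCI libraries against 271, 204 and 214 in control libraries (-0.72 ± 0.24 SE). In Mir543 the abundant 3p arm was lower in every SCI library, and the scarce 5p arm overlapped between groups. In Mir381 both arms overlapped between groups, and the abundant 3p arm had a lower mean in SCI. The ratios of Mir543 and of Mir381 did not overlap.

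A-to-G changes were read at 11 positions of the cluster, at shares from 1.17% to 76.9% of reads as means of the libraries. Reads with 1 mismatch to a hairpin, no exact match to any annotated transcript and a change at least 3 bases from the 3′ end were compared with exact reads at each A. At a share of at least 1% there were 41 sites over all miRNA arms and 11 in the cluster, on 10 arms, although the cluster held 238 of the 1594 A positions read deeply enough. No A-to-C and no A-to-T site reached that share, and 2 C-to-T sites did in the cluster. Of the 15 sites at 10% or more over all arms, 7 were in the cluster. The change lay in the seed at 9 of the 11 sites. Matching used transcripts and not the genome, so a source of these reads elsewhere in the genome was not tested. Positions are counted from 1 at the most common 5′ end of the exact reads.

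The highest share was at miR-376b-3p. Its A6G change was found in 88.9%, 74.8% and 86.6% of covering reads in SCI libraries, against 74.8%, 67.1% and 69.1% in control libraries. SCI 1 and SCI 3 lay above all controls and SCI 2 level with control 1 (log2 odds difference 1.17 ± 0.41 SE, limma, unadjusted p = 0.0339, adjusted p = 0.442). The same base of the related miR-376c-3p was changed in 51.3%, 50.1% and 57.2% of reads in SCI libraries and in 52.1%, 39.2% and 43.7% in control libraries, with overlap (0.46 ± 0.23 SE). In miR-376a-5p, whose edited form acts on Prps1 mRNA in mouse, A4G stood at 49.9%, 53.6% and 51.1% in SCI libraries and at 45.6%, 57.7% and 53.8% in control libraries. The controls enclosed the SCI values.

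The first 2 hairpins of the cluster were changed at the same seed base. A5G in miR-411-5p reached 30.1%, 31.7% and 29.6% in SCI libraries and 29.6%, 32.3% and 32.2% in control libraries. A5G in miR-379-5p reached 20.1%, 21.7% and 19.5% in SCI libraries and 21.3%, 21.8% and 21.5% in control libraries. Both overlapped and varied by a few percentage points at most. The arm shared by miR-376b and miR-376c on the 5p side carried A7G in 10.9% of reads on average, and miR-377-3p carried A10G, outside the seed, in 6.21%. The lowest sites, in miR-300-3p (A7G), miR-381-3p (A7G) and miR-376a-3p (A12G), averaged 1.94%, 1.66% and 1.17%.

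miR-381-3p carried the one site of the cluster whose groups did not overlap. A4G was found in 13.5%, 11.4% and 15.1% of covering reads in SCI libraries, against 8.66%, 9.87% and 8.58% in control libraries, on 11305 to 48564 reads per library. Every SCI library lay above every control library (log2 odds difference 0.63 ± 0.15 SE, limma, unadjusted p = 0.00787, adjusted p = 0.323 over 41 sites). The level of the changed reads themselves overlapped, with 209, 159 and 191 CPM in SCI libraries and 253, 139 and 160 CPM in control libraries. No site passed the adjustment in the cluster or elsewhere, a background of 0.00%. At an unadjusted p under 0.05, 2 of the 11 sites were higher in SCI and none lower, against 9.76% and 0.00% of all 41. Groups without overlap were found at 1 of the 11 with SCI higher and none with SCI lower, against 9.76% and 2.44% of all. The changed seed of miR-381-3p, ATGCAAG, is the seed of miR-300-3p, which can be seen from the sequences given above. Reads of miR-381-3p under 21 nt with this change match the miR-300 hairpin exactly and were counted there. With reads of 21 nt or more only, the shares were 14.1%, 11.8% and 15.9% in SCI libraries and 8.87%, 10.3% and 8.92% in control libraries.

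**Figure D3:**
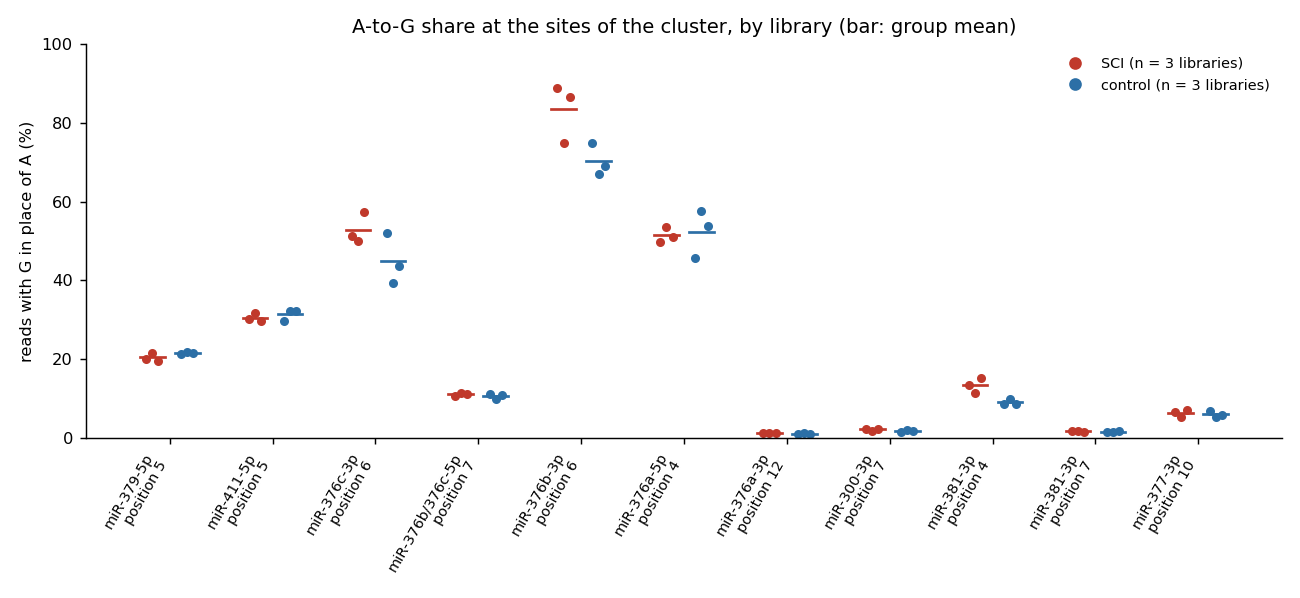
Percentage of covering reads with G in place of A at each of the 11 sites of the cluster, in 3 SCI (red, left) and 3 control (blue, right) libraries, with bars at the group means. Sites run in genomic order. Shares reach 88.9% at miR-376b-3p, and at position 4 of miR-381-3p the SCI libraries lie above all control libraries.

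The changed reads alter the level assigned to arms with a high share of them. Exact and A-to-G reads of miR-376b-3p together came to 687, 588 and 788 CPM in SCI libraries and 733, 556 and 571 CPM in control libraries. With them the groups overlapped and the log2 fold change turned from -0.72 to 0.15 (edgeR, unadjusted p = 0.391). Thus the exact reads of miR-376b-3p had lower values in SCI and the sum of both forms did not. For miR-376c-3p the sum was 522, 406 and 543 CPM in SCI libraries and 402, 285 and 337 CPM in control libraries. SCI 2 lay just above control 1. The log2 fold change was 0.52 (edgeR, unadjusted p = 0.0149), against 0.31 for exact reads alone (edgeR, unadjusted p = 0.0597). With A-to-G reads added, 0 arms of the cluster passed the adjustment. For miR-381-3p the changed reads made up a small part, and the sums of 1549, 1396 and 1260 CPM in SCI libraries and 2924, 1407 and 1866 CPM in control libraries kept the order of the exact reads.

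**Figure D4:**
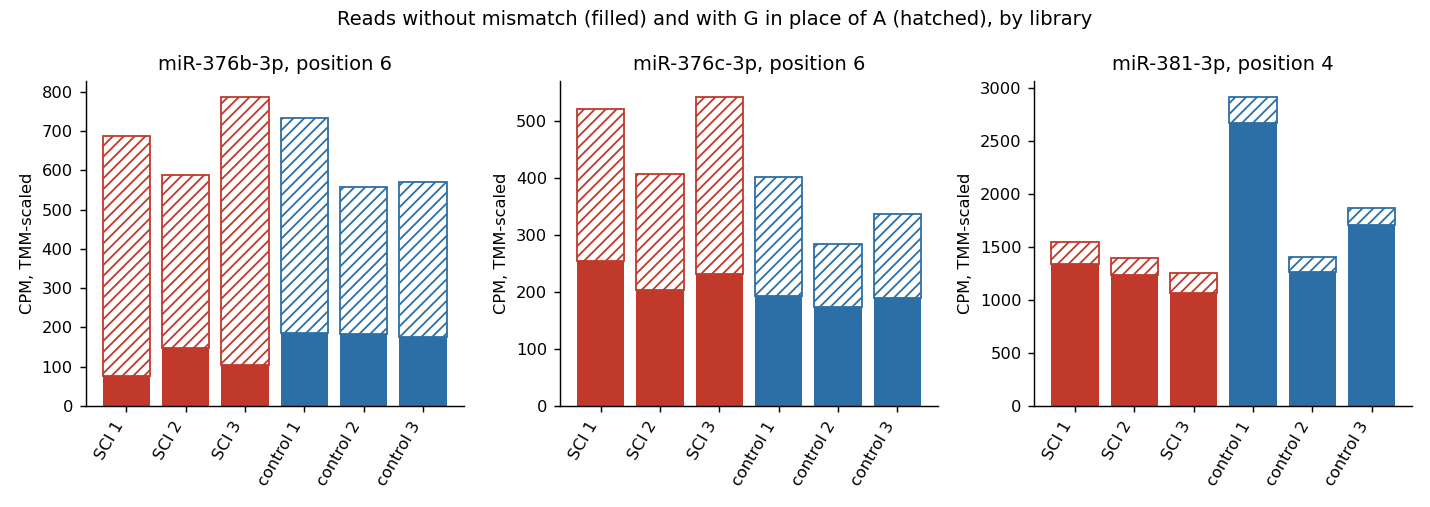
CPM of exact reads (filled) and reads with G in place of A (hatched) in each SCI (red) and control (blue) library for miR-376b-3p, miR-376c-3p and miR-381-3p. For miR-376b-3p the hatched part is larger than the filled part in every library and the bar heights of the groups overlap.

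The share of changed reads also differed between 5′ forms of an arm. In miR-376a-5p, A4G made up 42.2% of reads with the most common 5′ end, 81.3% of those starting 1 base upstream and 62.0% of those starting 1 base downstream, as means of the 6 libraries. The order was the same in every library. In miR-411-5p the share was 27.2% in the most common form, 34.2% in the upstream form and 35.6% in the scarce downstream form. In the shared 5p arm of miR-376b and miR-376c it went the other way, with 11.6% in the most common form and 5.58% and 4.42% in the upstream and downstream forms. At miR-376b-3p the most common form had 77.7% and the downstream form 66.0%.

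Several arms of the cluster are made with a pair of frequent 5′ ends, and thus with a pair of seeds. These were singled out after their values were seen. The most abundant read of each form follows, with its seed in capitals.
miR-411-5p, most common end: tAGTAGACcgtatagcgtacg
miR-411-5p, 1 base upstream: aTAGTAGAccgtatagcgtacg
miR-323-3p, most common end: cACATTACacggtcgacctct
miR-323-3p, 1 base upstream: gCACATTAcacggtcgacctct
miR-409-3p, most common end: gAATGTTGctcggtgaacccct
miR-409-3p, 1 base downstream: aATGTTGCtcggtgaacccct
miR-485-3p, most common end: cATACACGgctctcctctcttc
miR-485-3p, 2 bases upstream: gTCATACAcggctctcctctct
Shares of 5′ ends here and below count exact reads only. Reads starting 1 base upstream made up 48.8% of miR-411-5p and 48.0% of miR-323-3p. A5G was more frequent in the upstream form of miR-411-5p (34.2%) than in the most common form (27.2%). With changed reads counted, the upstream end of miR-411-5p would be the more frequent one. Reads starting 1 base downstream made up 33.8% of miR-409-3p, 42.1% of miR-543-5p and 38.4% of miR-544-5p. In miR-377-3p 23.1% of reads began 3 bases upstream of the most common end. The most common end of miR-485-3p lies 3 bases downstream of the RefSeq start, and 53 of the 61 tested arms with a RefSeq sequence had the RefSeq 5′ end. Of the 56 arms with enough reads, 8 had at least 30% of reads at other 5′ ends, against 56 of all 440.

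Other 5′ ends were less frequent in SCI in 7 cluster arms at an adjusted p under 0.05 (limma on the log2 odds of other against most common 5′ ends, 56 arms tested), and more frequent in none. Over all 440 arms 34 passed (7.73%), of which 33 were lower in SCI. The log2 odds were below 0 in 35 of the 56 and in 312 of all 440 (70.9%), with medians of -0.11 and -0.14. Groups without overlap were found in 19 members with SCI lower and 5 with SCI higher, against 30.2% and 4.55% of all arms. At an unadjusted p under 0.05, 14 were lower and 5 higher, against 23.2% and 2.95%. Most of the calls thus lay in arms outside the cluster, and nearly all had the same direction. In 6 of the 7 arms the main other end lay 1 base downstream, and in miR-485-3p 2 bases upstream.

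In miR-379-3p, 1.06%, 1.14% and 0.887% of reads had another 5′ end in SCI libraries, against 4.59%, 3.05% and 2.75% in control libraries. Every SCI library was well under every control library (log2 odds difference -1.75 ± 0.23 SE, limma adjusted p = 0.0277). miR-411-3p, with the same seed, had 1.40%, 1.35% and 1.18% in SCI libraries and 3.49%, 2.69% and 2.08% in control libraries (-1.06 ± 0.21 SE, limma adjusted p = 0.0420). The next hairpin's miR-380-3p had 1.67%, 1.12% and 1.14% in SCI libraries and 3.07%, 2.56% and 2.24% in control libraries (-1.03 ± 0.21 SE). These 3p arms all begin with a T, and their downstream form starts at the following A.

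miR-376c-3p had 2.07%, 1.56% and 1.49% in SCI libraries, against 5.78%, 4.89% and 3.69% in control libraries (-1.52 ± 0.22 SE, limma adjusted p = 0.0277). miR-410-3p, whose level had higher values in SCI, had 1.73%, 1.63% and 1.48% in SCI libraries and 3.67%, 3.13% and 2.49% in control libraries (-0.95 ± 0.17 SE, limma adjusted p = 0.0304). Both stood without overlap. The largest difference in percentage points was that of miR-485-3p, with 29.0%, 31.9% and 29.2% in SCI libraries and 47.8%, 41.7% and 40.5% in control libraries (-0.83 ± 0.14 SE, limma adjusted p = 0.0302). miR-154-5p differed least, with 0.648% ± 0.0232 in SCI and 0.866% ± 0.0207 in control (SD over libraries), and the libraries of each group lay close together (-0.42 ± 0.08 SE).

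**Figure D5:**
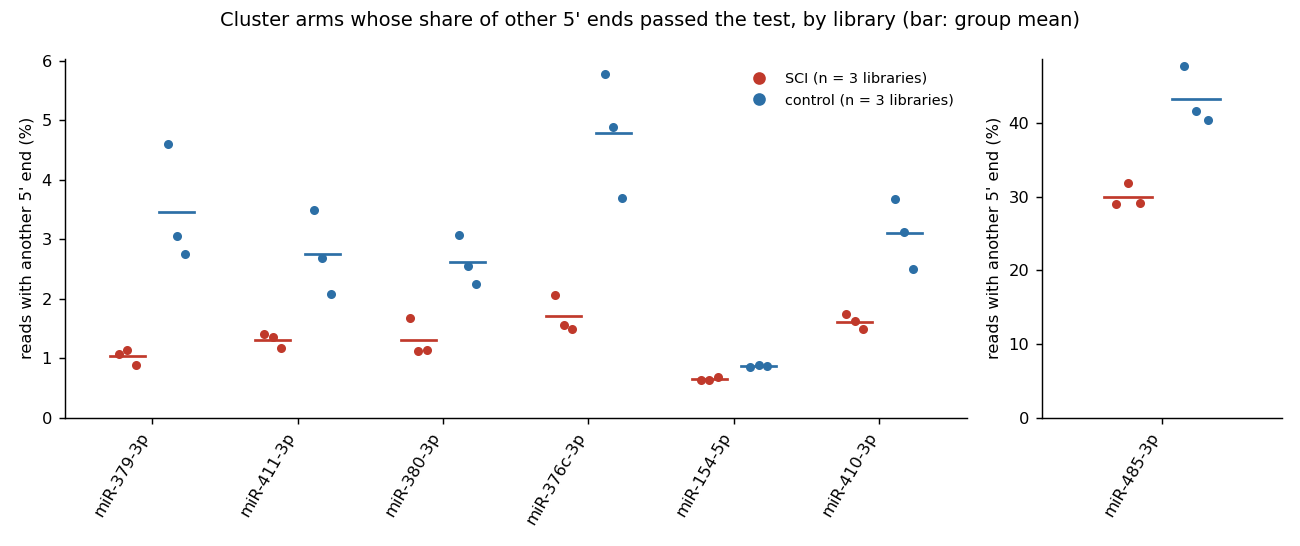
Percentage of reads with a 5′ end other than the most common one for the 7 cluster arms that passed the test, in 3 SCI (red, left) and 3 control (blue, right) libraries, with bars at the group means. The right panel has its own axis for miR-485-3p. All SCI libraries lie under all control libraries in each arm.

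These calls rested on all 6 libraries together. Leaving out control 1, control 2, SCI 1 or SCI 2 left no arm of the cluster past the threshold, leaving out SCI 3 left 1 (miR-544-3p, not among the 7), and leaving out control 3 left 5. The signs of the 7 held in each case, from -1.90 to -1.52 for miR-379-3p and from -0.92 to -0.70 for miR-485-3p. The other 7 arms with at least 30% of other ends had log2 odds differences from -0.26 (miR-300-5p) to 0.22 (miR-377-3p), and none passed. miR-411-5p had 48.8%, 49.9% and 48.0% other ends in SCI libraries and 51.0%, 51.0% and 50.3% in control libraries (-0.11 ± 0.08 SE), and miR-409-3p had 42.0%, 43.0% and 40.5% in SCI libraries and 39.3%, 40.2% and 42.0% in control libraries (0.08 ± 0.09 SE). Higher shares in SCI, at an unadjusted p under 0.05 (limma), were seen in 5 arms, against 2.95% of all arms. They were miR-496a-3p, miR-495-3p, miR-667-5p, miR-412-3p and miR-494-3p, of which only miR-494-3p overlapped between groups. miR-496a-3p had 18.4%, 14.0% and 16.7% in SCI libraries and 13.2%, 10.7% and 10.8% in control libraries (0.58 ± 0.16 SE, limma adjusted p = 0.090). miR-495-3p had 28.9%, 15.8% and 21.7% in SCI libraries and 13.5%, 14.3% and 15.0% in control libraries (0.73 ± 0.29 SE, limma adjusted p = 0.180).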

How the data were processed

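The authors deposited, for each of the 6 libraries, raw read counts of distinct read sequences, per the file headers. Per the labels' protocols RNA was extracted with mirVana and libraries were made with HD adapters. The submitters' processing notes give GRCm38 as the build, and the trimmer and filters are not given in the sources used here. Reads of 18 to 26 nt were matched here without mismatch, on the sense strand, to the named miRNA hairpins of GENCODE M21. These exact reads were not checked against other transcripts. They were counted per hairpin arm by read midpoint, arms that share at least 50% of their reads were merged, and reads still in several arms (0.1% to 0.153% per library) were left out. Total counts per library were 10585062 to 24480988.

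Levels were tested with edgeR 4.0.16 (quasi-likelihood, TMM, filterByExpr with a minimum count of 10, no covariate; the SE is the fold change divided by the root of F). Arm ratios (each arm averaging 10 counts or more), A-to-G odds (at least 100 covering reads in each library, share of at least 1%) and 5′ end odds (mean of at least 100 reads) were tested with limma 3.58.1 on log2 ratios with a pseudocount of 0.5. Benjamini-Hochberg adjustment ran over all arms, hairpins or sites tested, and an adjusted p under 0.05 passed. The procedures were tested on simulated data. Alternatives were other scalings and filters, DESeq2 1.42.0, limma-voom, other read sets, leaving out each library, a replicate block and adding A-to-G reads. R 4.3.3, Python 3.11.15, pandas 2.3.3, numpy 2.4.6, scipy 1.17.1 and matplotlib 3.10.9 were used.

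Named arms are those with an unadjusted p under 0.05 for level, arm ratio or 5′ ends, the 10 most abundant, all A-to-G sites and a fixed set of 25 well-known members. The members, lists and tests were chosen with earlier results of these data known.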

Additional observations from a re-analysis of the deposited data

How the results depend on the processing

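With 3 libraries per group, the spread between libraries limits what can be called. Of 65 cluster arms tested for level, 0 passed with all libraries. Without a filter on low counts 7 passed (30 over all 1421 arms), with DESeq2 3 (12 over all 690), and leaving out 1 library gave 0 to 1 (0 to 7 over all arms). Arms with other 5′ ends passing numbered 34 over all arms and 7 in the cluster; with a mean of at least 500 reads 61 passed over all, and leaving out 1 library gave 0 to 36 over all and 0 to 5 in the cluster. The median log2 fold change of the cluster was 0.0920 with total count scaling and -0.0695 to 0.0734 when 1 library was left out. The difference in cluster share turned to -0.0746 as a share of all reads and ran from -0.108 to 0.192 percentage points when 1 library was left out. The deviations of same-numbered libraries correlated in pair 1 (r = 0.199) and not in pairs 2 and 3 (-0.055 and -0.074). SCI 2 correlated best with control 3 (0.218) and SCI 3 with control 2 (0.194), so not every library correlated best with its own number, and the numbers were not taken as pairs. With the replicate number as a block, 0 levels, arm ratios and A-to-G sites passed, 29 arms passed for 5′ ends (5 in the cluster, without miR-154-5p and miR-485-3p), and the median was -0.01.

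Of 1067 values of single arms and sites under the alternatives, 43 changed sign, 24 of them when 1 library was left out; the cause was not tested. Total count scaling gave log2 0.0742 for miR-411-5p, 0.0920 for miR-299a-3p, 0.0862 for miR-380-3p, 0.0969 for the shared miR-376b and miR-376c 5p arm, 0.0772 for miR-539-5p, 0.0832 for miR-485-3p and 0.00305 for miR-154-5p. Upper quartile scaling gave 0.000857 for miR-299a-3p and 0.00446 for the shared 5p arm, and a minimum count of 50 gave 0.00369 and 0.00912 for these. The most abundant read of each arm gave 0.0456 for miR-411-5p, 0.144 for miR-299a-3p, -0.0161 for miR-494-3p, 0.00603 for the shared 5p arm, 0.0796 for miR-539-5p, 0.0252 for miR-544-3p and 0.253 for miR-485-3p. Adding A-to-G reads gave 0.15 for miR-376b-3p. Leaving out 1 library gave -0.0384 to 0.134 for miR-379-5p, -0.0690 to 0.00232 for miR-411-5p, -0.15 to 0.13 for miR-299a-3p, -0.20 to 0.16 for miR-380-3p, -0.12 to 0.20 for miR-494-3p, -0.0546 to 0.0398 for the shared 5p arm, -0.51 to 0.18 for miR-376a-3p, -0.14 to 0.33 for miR-381-5p, -0.0997 to 0.00897 for miR-539-5p, -0.384 to 0.0452 for miR-544-3p, -0.315 to 0.0728 for miR-134-5p, -0.15 to 0.16 for miR-485-3p, -0.38 to 0.16 for miR-377-3p, -0.195 to 0.0123 for miR-409-3p and -0.0397 to 0.335 for miR-412-3p, and for A-to-G log2 odds -0.25 to 0.11 at miR-376a-5p and -0.00190 to 0.22 at miR-377-3p.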
